A study of Homo sapiens with 6 samples.

Results

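This account covers the assembly factors of the large (60S) ribosomal subunit, proteins that build the subunit in the nucleolus and are not part of the finished ribosome, in YCC3 gastric cancer cells in which CTNNB1 was silenced. The list holds 44 genes chosen by name for this function. A gene was measured where an array row carried its symbol alone, and the brightest such row over the 6 arrays was selected on its signal, which left 39 genes of 18417 in all. EBNA1BP2, DDX18 and GNL3 had no row named in the annotation used here, and PPAN and SENP3 had only rows that carry other symbols too. The list was drawn up with earlier results of these arrays in view, so its counts are a description and no test was made over the list.

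The CTNNB1 siRNA group was 3 arrays of YCC3, a human gastric cancer cell line, transfected with siRNA against CTNNB1, the gene for beta-catenin, a junction protein and the co-activator of Wnt signalling. The other group was 3 arrays of YCC3 cells transfected with a non-targeting control siRNA. RNA was taken 48 hours after transfection and read on an Affymetrix Human Gene 1.0 ST array. The labels say biological replicates but not whether these were separate cultures, and they give neither siRNA sequences nor an untransfected group, so a p-value here reflects sample spread that may be technical.

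Making a large subunit starts with a long ribosomal RNA precursor transcribed by RNA polymerase I. Assembly factors fold, cut and modify it while ribosomal proteins join, and helicases, GTPases and ATPases then strip the factors off in steps before export to the cytoplasm. Genes for these factors are well-known targets of MYC, and growing tumour cells make them at a high rate.

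Values are log2 signals, so a difference of -1 is a halving. The log2 change is CTNNB1 siRNA minus control siRNA, given with its standard error (SE) from limma, and the adjusted p is Benjamini-Hochberg over all 18417 genes. A gene is said to have fallen or risen where that adjusted p was under 0.05. The silenced gene was lower, at 10.94, 11.06 and 11.20 on the CTNNB1 siRNA arrays, against 11.80, 11.81 and 11.90 on the control arrays (log2 change -0.77 ± 0.10). Of all genes, 488 fell and 382 rose, which makes 43.9% of calls rises, or 56.3% under cyclic loess scaling. All 6 epithelial markers (EPCAM, CDH1, KRT8, KRT18, KRT19 and CLDN4) lay above the median signal of all genes, 6.56, and CLDN4 was 1 of 2 markers that rose. The other was CD68, which with LYZ lay above that median among 5 measured leukocyte markers, while PTPRC, CD3E and CD14 lay below it. Of 6 stromal markers only COL1A1 lay above it, at 6.72. The part of other cell types in the results was not tested.

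Genes for large subunit assembly factors were lower as a group on the CTNNB1 siRNA arrays. Of the 39 measured, 15 fell, none rose and 24 did not pass. Over all genes 2.65% fell and 2.07% rose, and nothing is read from that contrast because the list was drawn up with these results known. No member had a higher signal even at an unadjusted p under 0.05 in limma, while 31 had a lower one. At that p 1536 of all 18417 genes had a higher signal and 2210 a lower one. The median log2 change was -0.38, or 22.9% less signal, against 0.006 over all genes. Every measured member lay above the median signal of all genes, and the 8563 genes within the members' range of signal had a median change of -0.048, with 4.61% falling. Of these 8563 genes 1628 had a lower signal and 824 a higher one at an unadjusted p under 0.05 in limma. On 33 of the 39 genes all CTNNB1 siRNA arrays lay below all control arrays, and on none above. Of all genes 15.2% and 10.8% did so. Within the members' range of signal 2101 of the 8563 genes (24.54%) lay below in this way and 1099 above. A lower signal in these lysates cannot be told apart from fewer cells carrying a usual level.

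The shift was present on each array. Relative to each gene's control mean, the median member measured -0.40, -0.46 and -0.31 on CTNNB1 siRNA replicates 1, 2 and 3, against 0.021, -0.082 and 0.060 on control replicates 1, 2 and 3. The same medians over all genes lay between -0.020 and 0.015 on the CTNNB1 siRNA arrays and between -0.013 and 0.016 on the control arrays. All 3 CTNNB1 siRNA arrays were therefore lower than any control array in the members' median, and replicate 2 was the lowest of its group in both.

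**Figure D1:**
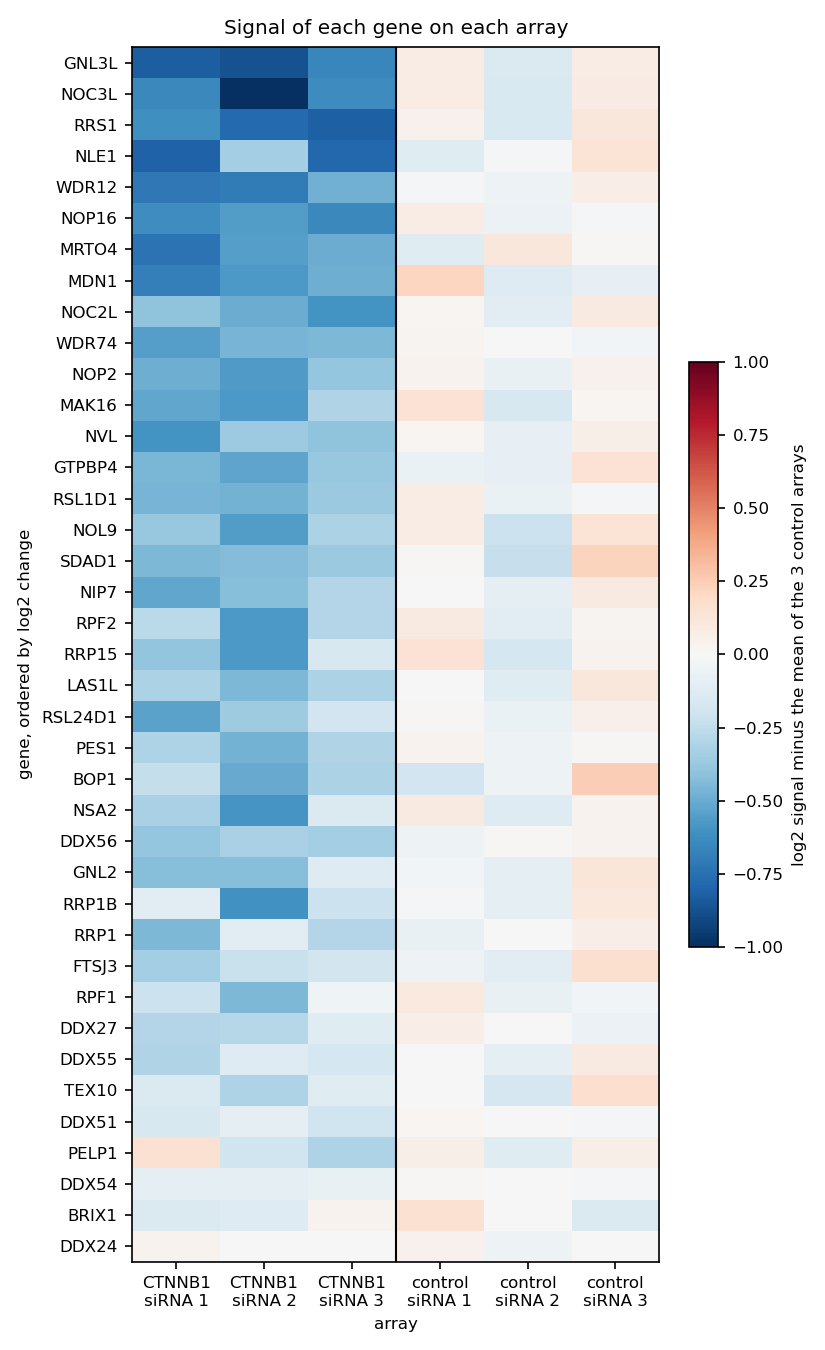
Each row is 1 of the 39 measured genes, ordered by log2 change, and each column 1 array. Colour gives the log2 signal minus the mean of the control arrays (blue lower, red higher). The CTNNB1 siRNA columns are blue for most genes, down to GNL3L, NOC3L and RRS1 at the top, and DDX24 at the bottom is near white on all 6 arrays.

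The number of falls depended on single arrays. Leaving out an array of the CTNNB1 siRNA group gave 5 falls (replicate 1 left out), 8 (replicate 2) or 13 (replicate 3). Leaving out a control array gave 5 (replicate 1), 12 (replicate 2) or 6 (replicate 3). Falls over all genes became fewer in most of these fits as well. They were 0.54% with CTNNB1 siRNA replicate 1 left out and 0.52% with control replicate 1 left out. Without CTNNB1 siRNA replicate 3 they were 2.79%, against 2.65% with all arrays. The members' median change moved little, between -0.45 and -0.35. GNL3L, RRS1, WDR12 and NOP16 fell with any 1 array left out and in each of the 9 other fits at this threshold.

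**Figure D2:**
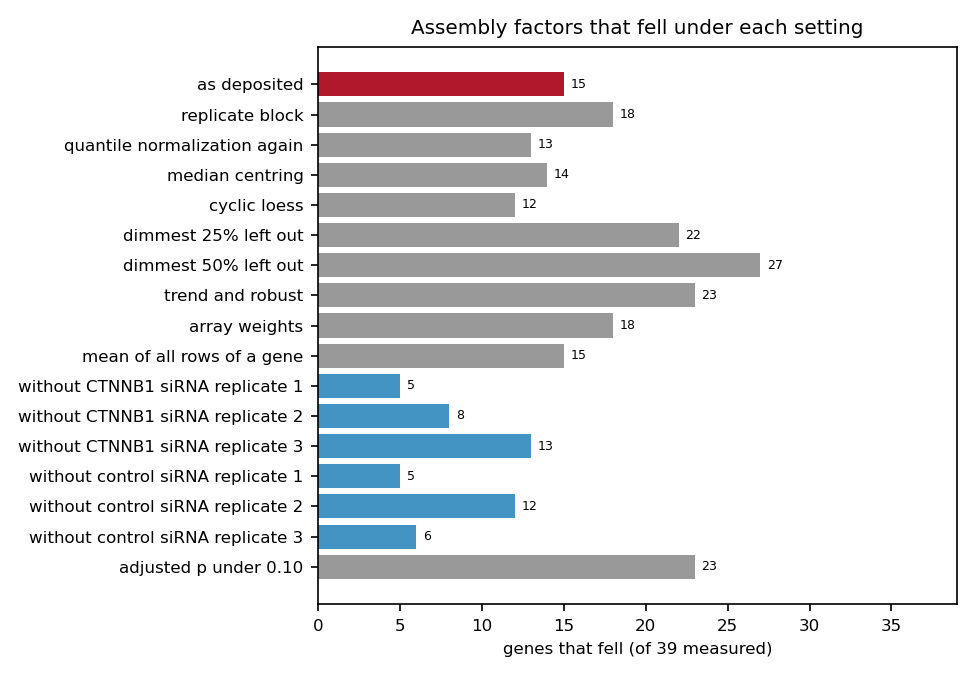
Bars give how many of the 39 measured genes fell (x axis) as deposited (red), under other fits, filters, scalings and a looser threshold (grey) and with 1 array left out (blue). The count runs from 5 to 27, and is 15 as deposited.

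The promoters of the genes were read for short motifs because the members moved together. The RefSeq promoter table (GRCh38.p14) held 35 windows for 33 of the measured genes, each 300 bases long with 250 before and 50 after the gene's start. Members and the other lists were matched to it by symbol, and RRS1, BOP1, MAK16, RPF2, RSL1D1 and RRP1B had no entry. Windows of all genes tested, used for comparison, were matched by gene identifier instead. The E-box CACGTG, which reads the same on both strands and is the site that MYC binds with MAX, was in 11 of the 35 windows (31.4%), against 8.32% of 20107 windows of genes tested. The ETS motif CCGGAAG, on either strand, was in 17 windows (48.6%), against 12.95% of the windows of genes tested. The GC box GGGCGG was in 54.3% against 57.2%, CCAAT in 28.6% against 34.6%, and TATAAA in 1 window (2.86%) against 9.06%, both strands searched in each case. Overlaps between different motifs were not removed. The median content of G and C was 63.7% against 62.7%.

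In 7 of the 11 windows with an E-box it lay in the 50 bases after the start. That is 20.0% of the members' windows, against 0.91% of the windows of genes tested, and this split was chosen after the positions were seen. In related lists described further on, an E-box lay there in 2 of 44 windows (4.55%) of other large subunit factors and in 14 of 43 windows (32.6%) of processome genes of the small subunit. Anywhere in the window it was in 11 of those 44 and 20 of those 43 windows, and the ETS motif was in 21 and 17. Differences between the lists were not tested. Among the windows of members that fell 5 of 14 had an E-box after the start, and among those of members that did not pass 2 of 21. Counted over the whole window, an E-box was in 5 of 14 windows of members that fell and 6 of 21 of those that did not pass. The ETS motif was in 7 of 14 and 10 of 21. Differences between members that fell and members that did not pass were not tested. The sequences below run 5′ to 3′ from 150 bases before the start to 30 bases from the start on, with E-boxes and ETS motifs in capitals. NOC3L, NLE1 and MRTO4 are shown as genes that fell with an E-box just after the start, PES1 as one with the same arrangement that did not pass, and GNL3L as the member with the lowest log2 change, which has no E-box in its window.
NOC3L, GRCh38.p14 chr10:94362910-94363089, minus strand: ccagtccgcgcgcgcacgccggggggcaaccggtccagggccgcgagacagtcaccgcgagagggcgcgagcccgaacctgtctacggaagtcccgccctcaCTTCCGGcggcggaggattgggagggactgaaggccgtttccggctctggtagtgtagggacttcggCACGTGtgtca
NLE1, GRCh38.p14 chr17:35142274-35142453, minus strand: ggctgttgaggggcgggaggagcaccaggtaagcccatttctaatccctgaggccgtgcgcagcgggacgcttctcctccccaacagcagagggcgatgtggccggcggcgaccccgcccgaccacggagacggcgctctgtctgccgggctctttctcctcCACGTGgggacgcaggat
MRTO4, GRCh38.p14 chr1:19251655-19251834, plus strand: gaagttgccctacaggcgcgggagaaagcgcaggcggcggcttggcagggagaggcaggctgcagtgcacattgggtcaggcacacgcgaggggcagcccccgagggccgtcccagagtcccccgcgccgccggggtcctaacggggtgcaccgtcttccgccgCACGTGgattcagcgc
PES1, GRCh38.p14 chr22:30591881-30592060, minus strand: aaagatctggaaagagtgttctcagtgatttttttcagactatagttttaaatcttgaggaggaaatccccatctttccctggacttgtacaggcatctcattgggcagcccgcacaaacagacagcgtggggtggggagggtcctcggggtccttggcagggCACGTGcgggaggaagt
GNL3L, GRCh38.p14 chrX:54530069-54530248, plus strand: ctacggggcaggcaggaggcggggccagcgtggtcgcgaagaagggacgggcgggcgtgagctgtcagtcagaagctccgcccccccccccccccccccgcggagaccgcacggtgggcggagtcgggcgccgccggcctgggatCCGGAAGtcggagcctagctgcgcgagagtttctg
The E-box begins 19 bases after the first base of NOC3L, 12 after that of NLE1, 14 after that of MRTO4 and 13 after that of PES1. NOC3L and GNL3L have an ETS motif ahead of or at the start. A match is a description of the letters only, and whether these motifs have a part in the lower signals was not tested. MYC itself fell, with 9.86, 9.68 and 9.75 on the CTNNB1 siRNA arrays, against 10.38, 10.35 and 10.40 on the control arrays (log2 change -0.61 ± 0.095, limma adjusted p = 0.00644). Its part in the members' change was not tested either.

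The GTPases held the lowest log2 change of the list. GNL3L, a nucleolar GTPase related to nucleostemin, measured 7.42, 7.38 and 7.60 on the CTNNB1 siRNA arrays, against 8.32, 8.10 and 8.32 on the control arrays. The groups were well apart, and the gene fell by 0.78 ± 0.11 log2 units, 41.9% less signal (limma adjusted p = 0.00342). GTPBP4, the counterpart of yeast Nog1, which sits on the particle from nucleolus to cytoplasm, measured 8.59, 8.51 and 8.67 on the CTNNB1 siRNA arrays, against 8.98, 8.96 and 9.19 on the control arrays. It fell by 0.46 ± 0.10 (adjusted p = 0.0349), a call kept only without CTNNB1 siRNA replicate 3 and lost without any other array (highest adjusted p = 0.120, without control replicate 3). GNL2, the counterpart of yeast Nog2, measured 8.83, 8.83 and 9.12 on the CTNNB1 siRNA arrays, against 9.23, 9.16 and 9.37 on the control arrays, and did not pass (log2 change -0.33 ± 0.12, adjusted p = 0.138).

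All 4 genes of the AAA ATPases and the factors they remove fell. Over all genes 2.65% fell, and 4.61% of those within the members' range of signal. Nothing is read from this contrast, since the list was drawn up with these results known. MDN1, a very large ATPase that pulls factors off the particle by force, measured 6.68, 6.78 and 6.87 on the CTNNB1 siRNA arrays, against 7.57, 7.23 and 7.27 on the control arrays (log2 change -0.58 ± 0.12, limma adjusted p = 0.0208). Control replicate 1 was high in its group, and the groups did not overlap. NLE1, a substrate of MDN1 known best as yeast Rsa4, measured 7.33, 7.79 and 7.34 on the CTNNB1 siRNA arrays, against 8.01, 8.12 and 8.27 on the control arrays (log2 change -0.64 ± 0.14, adjusted p = 0.0289). CTNNB1 siRNA replicate 2 stood nearest to the controls there. NVL, a second ATPase of the nucleolus, measured 6.77, 7.00 and 6.97 on the CTNNB1 siRNA arrays, against 7.39, 7.29 and 7.43 on the control arrays (log2 change -0.46 ± 0.10, adjusted p = 0.0343). WDR74, which NVL releases from the particle, measured 9.68, 9.77 and 9.78 on the CTNNB1 siRNA arrays, against 10.26, 10.23 and 10.20 on the control arrays (log2 change -0.49 ± 0.091, adjusted p = 0.0153). Both of these pairs of groups were clear of each other. Single arrays ended these calls. NVL was lost without any 1 of the 6 arrays (adjusted p between 0.0522 and 0.137) and NLE1 without any but CTNNB1 siRNA replicate 2 (up to 0.127, without CTNNB1 siRNA replicate 1). MDN1 was lost without CTNNB1 siRNA replicate 1 (0.0967), CTNNB1 siRNA replicate 2, control replicate 1 or control replicate 3, and WDR74 without CTNNB1 siRNA replicate 1 or control replicate 1 (0.0832). NLE1 also missed the threshold after cyclic loess and after repeated quantile normalization.

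The PeBoW complex, made of PES1, BOP1 and WDR12, is needed to mature the RNAs of the large subunit. WDR12, the member that MDN1 pulls off, measured 8.83, 8.85 and 9.07 on the CTNNB1 siRNA arrays, against 9.54, 9.50 and 9.62 on the control arrays. It fell by 0.63 ± 0.10 log2 units, 35.5% less signal (limma adjusted p = 0.00810). PES1, or pescadillo, measured 7.80, 7.64 and 7.82 on the CTNNB1 siRNA arrays, against 8.15, 8.06 and 8.13 on the control arrays, which did not overlap but missed the threshold (log2 change -0.36 ± 0.096, adjusted p = 0.0640). BOP1 measured 8.66, 8.39 and 8.58 on the CTNNB1 siRNA arrays, against 8.70, 8.85 and 9.14 on the control arrays (log2 change -0.36 ± 0.13, adjusted p = 0.156), with controls that spread widely. A second, dimmer row named BOP1 averaged 8.15 on the CTNNB1 siRNA arrays and 8.60 on the control arrays (adjusted p = 0.0485 in a fit over all rows with 1 symbol).

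RRS1 and RPF2 load the 5S RNA particle onto the growing subunit. RRS1 measured 7.31, 7.14 and 7.10 on the CTNNB1 siRNA arrays, against 7.96, 7.77 and 8.03 on the control arrays, and fell by 0.74 ± 0.11 log2 units, 40.0% less signal (limma adjusted p = 0.00495). RPF2 measured 9.45, 9.14 and 9.42 on the CTNNB1 siRNA arrays, against 9.81, 9.60 and 9.74 on the control arrays, and did not pass (log2 change -0.38 ± 0.12, adjusted p = 0.0889). Its second row had a log2 change of -0.34. The groups of both genes were clear of each other. RPF1 and BRIX1, which share the Brix domain with RPF2, had groups that overlapped. RPF1 measured 7.33, 7.10 and 7.50 on the CTNNB1 siRNA arrays, against 7.65, 7.48 and 7.52 on the control arrays (log2 change -0.24 ± 0.12, adjusted p = 0.301). BRIX1 measured 9.12, 9.14 and 9.30 on the CTNNB1 siRNA arrays, against 9.42, 9.26 and 9.12 on the control arrays. Its log2 change was -0.079 ± 0.11, with a 95% confidence interval of -0.32 to 0.16 that leaves out the median of the list.

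Of the 2 ribosomal RNA methyltransferases, NOP2, which methylates a cytosine of the 28S RNA, measured 8.09, 8.02 and 8.19 on the CTNNB1 siRNA arrays, against 8.62, 8.51 and 8.63 on the control arrays. It fell by 0.48 ± 0.097 log2 units (limma adjusted p = 0.0209). The call was lost without CTNNB1 siRNA replicate 1, CTNNB1 siRNA replicate 2, control replicate 1 or control replicate 3, with an adjusted p of up to 0.105 without control replicate 1. FTSJ3, a ribose methyltransferase, measured 7.98, 8.11 and 8.14 on the CTNNB1 siRNA arrays, against 8.27, 8.22 and 8.49 on the control arrays (log2 change -0.25 ± 0.11, adjusted p = 0.222).

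Among 11 measured early nucleolar factors 6 fell and 5 did not pass, while 2.65% of all genes fell. NOC3L, the counterpart of yeast Noc3, measured 6.36, 6.00 and 6.38 on the CTNNB1 siRNA arrays, against 7.07, 6.85 and 7.08 on the control arrays, and fell by 0.76 ± 0.13 log2 units (limma adjusted p = 0.00949). Its relative NOC2L, also known as an inhibitor of histone acetylation, measured 9.40, 9.31 and 9.21 on the CTNNB1 siRNA arrays, against 9.83, 9.70 and 9.89 on the control arrays (log2 change -0.50 ± 0.10, adjusted p = 0.0223). The groups of both genes were well apart. NOP16 measured 7.26, 7.33 and 7.24 on the CTNNB1 siRNA arrays, against 7.96, 7.83 and 7.87 on the control arrays, with little spread in either group (log2 change -0.61 ± 0.093, adjusted p = 0.00605). MRTO4, which holds the place of the stalk protein P0 on the particle, measured 7.58, 7.76 and 7.82 on the CTNNB1 siRNA arrays, against 8.19, 8.43 and 8.32 on the control arrays (log2 change -0.60 ± 0.11, adjusted p = 0.0142). RSL1D1, a nucleolar protein with a fold like that of ribosomal protein L1, measured 10.36, 10.35 and 10.45 on the CTNNB1 siRNA arrays, against 10.90, 10.75 and 10.81 on the control arrays (log2 change -0.44 ± 0.094, adjusted p = 0.0287). NIP7 measured 9.59, 9.68 and 9.81 on the CTNNB1 siRNA arrays, against 10.11, 10.02 and 10.20 on the control arrays. Its log2 change was -0.41 ± 0.10, and its adjusted p of 0.049999 was only just under the threshold. MAK16 lay just beyond it, with 8.45, 8.39 and 8.66 on the CTNNB1 siRNA arrays, against 9.11, 8.81 and 8.98 on the control arrays (log2 change -0.47 ± 0.12, adjusted p = 0.0510).

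Leaving out 1 array ended the call of NOC3L without control replicate 1 (limma adjusted p = 0.0507) and of MRTO4 without CTNNB1 siRNA replicate 1 (0.0689) or control replicate 3. NOC2L was kept only without control replicate 2, and RSL1D1 and NIP7 only without CTNNB1 siRNA replicate 3, and each had its highest adjusted p (0.104, 0.142 and 0.166) without control replicate 1. NIP7 was also lost under cyclic loess, median centring and repeated quantile normalization, and RSL1D1 under cyclic loess. The other 4 early factors that did not pass were SDAD1, RRP15, RRP1B and RRP1, with log2 changes of -0.42 ± 0.12, -0.38 ± 0.13, -0.31 ± 0.13 and -0.28 ± 0.11. All but RRP15 had groups that did not overlap, as did 24.54% of genes within the members' range of signal, counting those lower on CTNNB1 siRNA arrays. RRP1 and RRP1B, related counterparts of yeast Rrp1, thus measured nearly alike, with adjusted p of 0.179 and 0.228. A second row named SDAD1 was dim, at 3.65 on the CTNNB1 siRNA arrays and 3.57 on the control arrays.

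None of the 6 measured DEAD-box helicases, which unwind or remodel RNA on the particle, passed in limma. At an unadjusted p under 0.05 a lower signal was found for 2 of them, and for 2210 of all 18417 genes. DDX24 measured 10.07, 10.03 and 10.04 on the CTNNB1 siRNA arrays, against 10.08, 9.99 and 10.04 on the control arrays. It was the only member with a log2 change above 0, at 0.01 ± 0.09 (95% confidence interval -0.19 to 0.21), and under median centring or without CTNNB1 siRNA replicate 1 or control replicate 2 that change was just below 0. DDX54 measured 8.47, 8.46 and 8.49 on the CTNNB1 siRNA arrays, against 8.57, 8.56 and 8.55 on the control arrays. Its groups did not overlap, yet the difference was small (log2 change -0.084 ± 0.088, adjusted p = 0.654). DDX51, DDX55 and DDX27 had log2 changes of -0.15 ± 0.09, -0.20 ± 0.099 and -0.24 ± 0.098, each with groups that did not overlap. All CTNNB1 siRNA arrays lay below all control arrays on 15.2% of all genes too, and on 24.54% of those within the members' range of signal. DDX56 came nearest to the threshold, with 9.23, 9.30 and 9.28 on the CTNNB1 siRNA arrays, against 9.57, 9.63 and 9.66 on the control arrays (log2 change -0.35 ± 0.09, adjusted p = 0.0563). The helicases' median log2 change was -0.18, against -0.54 for the AAA ATPases and their substrates and -0.44 for the early nucleolar factors. Differences between these groups of genes were not tested.

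**Figure D3:**
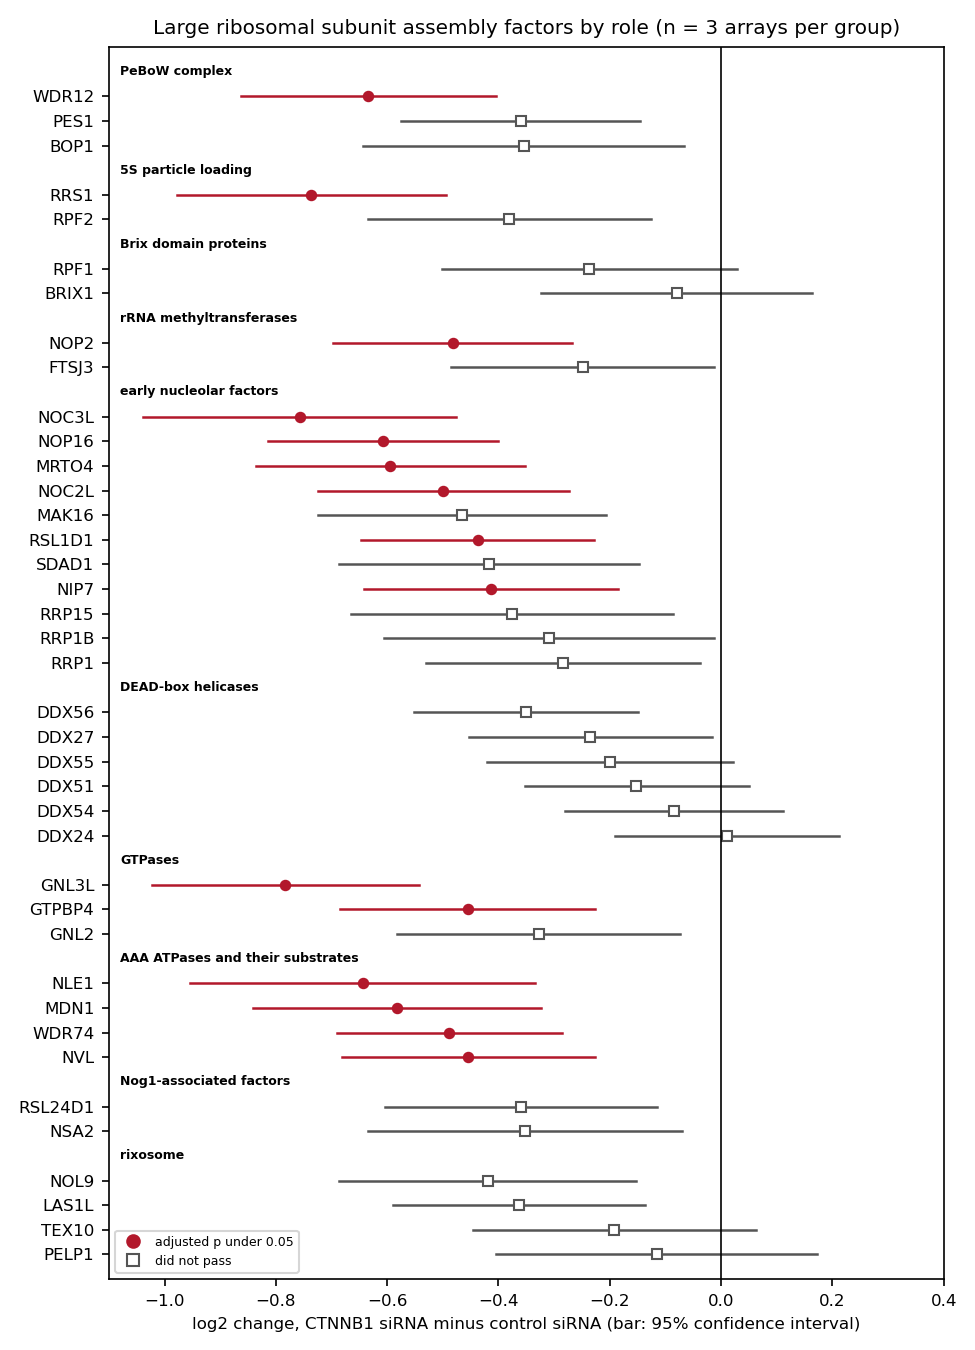
Points give the log2 change of each measured gene, CTNNB1 siRNA minus control siRNA, by role, and bars its 95% confidence interval from limma (n = 3 arrays per group). Filled red circles are the 15 genes that fell and open squares the 24 that did not pass. The AAA ATPases and their substrates are all filled, and the Brix domain proteins, helicases, Nog1-associated factors and rixosome all open.

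The rixosome, which cuts and trims the spacer between the RNAs of the large subunit, had no call among 4 measured genes in limma. Of these 2 had a lower signal at an unadjusted p under 0.05, as did 2210 of all 18417 genes. LAS1L, the endonuclease, measured 8.84, 8.70 and 8.84 on the CTNNB1 siRNA arrays, against 9.16, 9.03 and 9.27 on the control arrays (log2 change -0.36 ± 0.10, adjusted p = 0.0740). NOL9, the RNA kinase that acts after the cut, measured 7.98, 7.80 and 8.04 on the CTNNB1 siRNA arrays, against 8.44, 8.15 and 8.50 on the control arrays (log2 change -0.42 ± 0.12, adjusted p = 0.0786). The groups of these enzyme genes did not overlap, whereas those of the scaffold genes did. PELP1, a scaffold also known as a co-regulator of the oestrogen receptor, measured 8.27, 7.92 and 7.81 on the CTNNB1 siRNA arrays, against 8.18, 7.99 and 8.17 on the control arrays, with CTNNB1 siRNA replicate 1 above all controls (log2 change -0.12 ± 0.13). TEX10 had a log2 change of -0.19 ± 0.11 (adjusted p = 0.394).

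NSA2 and RSL24D1 join the particle near the yeast Nog1 position and stay until late stages. NSA2 measured 9.23, 8.96 and 9.40 on the CTNNB1 siRNA arrays, against 9.64, 9.42 and 9.59 on the control arrays (log2 change -0.35 ± 0.13, limma adjusted p = 0.150). RSL24D1, which holds the place of ribosomal protein L24, measured 8.70, 8.87 and 9.04 on the CTNNB1 siRNA arrays, against 9.25, 9.17 and 9.28 on the control arrays (log2 change -0.36 ± 0.11, adjusted p = 0.0940). Neither passed, and in neither did the groups overlap.

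Other genes that act on the large subunit lay in the same direction. Of 37 further factors 8 fell (2.65% of all genes did), none rose, and the median log2 change was -0.31. None was higher at an unadjusted p under 0.05 in limma either, where 1536 of all 18417 genes were. DDX21, a helicase that couples RNA polymerase I transcription to processing, measured 9.10, 9.22 and 9.21 on the CTNNB1 siRNA arrays, against 9.95, 9.80 and 10.08 on the control arrays (log2 change -0.77 ± 0.11, adjusted p = 0.00341). URB2, URB1 and MYBBP1A, other nucleolar factors, fell by 0.66 ± 0.13, 0.54 ± 0.10 and 0.48 ± 0.10 log2 units. The count of falls in this list was 4 under cyclic loess and between 1 and 6 with 1 array left out, being 1 without CTNNB1 siRNA replicate 2, control replicate 1 or control replicate 3, 3 with CTNNB1 siRNA replicate 1 left out and 4 with CTNNB1 siRNA replicate 3 left out.

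The list for the processome of the small subunit, the closest counterpart on the other side of the ribosome, also lay lower on the CTNNB1 siRNA arrays. Its members are called processome genes here, though it also holds factors of later small subunit steps, such as NOB1. Of 49 measured genes 20 fell (2.65% of all genes did), none rose and the median log2 change was -0.35. No gene of the list was higher at an unadjusted p under 0.05 in limma, where 1536 of all 18417 genes were. UTP20, a long scaffold protein, measured 7.11, 6.93 and 7.11 on the CTNNB1 siRNA arrays, against 8.05, 7.68 and 7.93 on the control arrays (log2 change -0.83 ± 0.12, adjusted p = 0.00399). HEATR1, BYSL and NOB1 fell by 0.78 ± 0.11, 0.68 ± 0.11 and 0.59 ± 0.099 log2 units. Without 1 array the count of falls lay between 4 (control replicate 1) and 18 (CTNNB1 siRNA replicate 3), and it was 6, 9 and 10 when CTNNB1 siRNA replicate 1, CTNNB1 siRNA replicate 2 or control replicate 3 was left out. The list medians on single arrays also ran alike. On CTNNB1 siRNA replicates 1, 2 and 3 the processome measured -0.39, -0.42 and -0.30 relative to the control means, against 0.033, -0.097 and 0.047 on control replicates 1, 2 and 3. The difference between the lists was not tested.

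**Figure D4:**
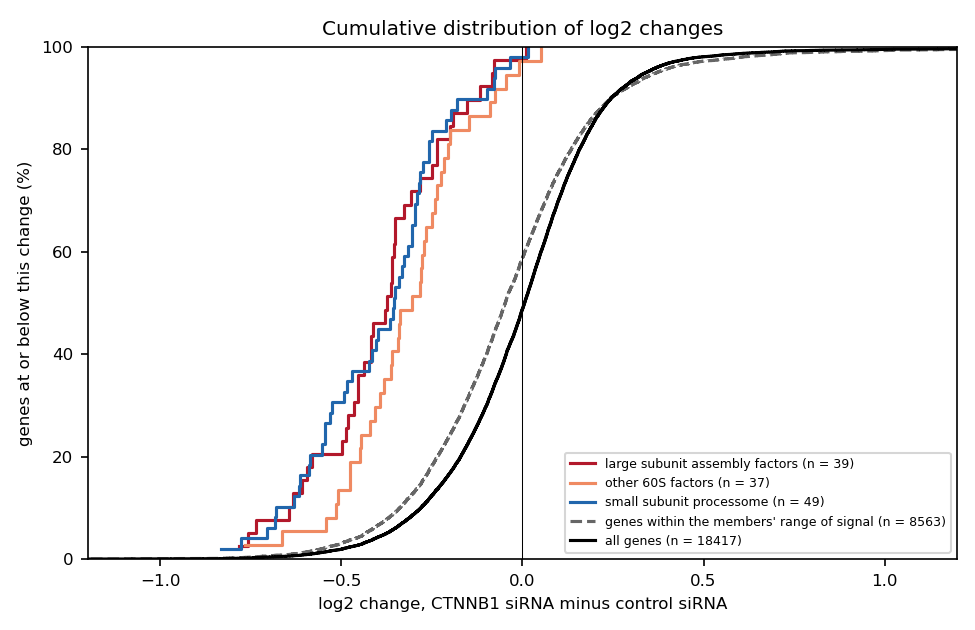
Lines give the share of genes (y axis, %) at or below each log2 change (x axis), for the 39 large subunit assembly factors, 37 other large subunit factors, 49 processome genes, the 8563 genes within the members' range of signal, and all 18417 genes. The lines of all 3 ribosome assembly lists lie left of those of the other genes over most of their length.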

How the data were processed

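RNA of 6 samples was profiled on arrays. The authors deposited log2 signals from RMA in Affymetrix Expression Console 1.1, per the submitters' processing notes. This method corrects background, equalises the arrays' distributions and summarises probes, so it hides a shift common to nearly all genes. The log2 scale of the values was inferred from their range (0.789 to 14.5). Genome build and annotation version: not given in the sources used here. Background calls were not used here, and the number of arrays limits the precision.

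Of 33297 rows, 19460 had 1 gene symbol, and the brightest row per gene gave 18417 genes, all tested with no filter. Limma 3.58.1 in R 4.3.3 (lmFit, eBayes, two-sided) compared the groups, calling genes at an adjusted p (Benjamini-Hochberg, every gene tested) under 0.05. On simulated data for this comparison over 18417 genes, changes of 0.5, 1 and 2 log2 units were recovered in 42%, 85% and 98% of cases. The simulation changed 50, 100 and 50 genes by these sizes, fewer than the 488 falls and 382 rises called here. A change as small as the members' median of -0.38 was not simulated. Per-array values are given for the genes that fell, the brightest, dimmest and most changed members, and others of interest; other lists give the 4 genes with the smallest p. The members and lists were chosen with earlier results of these data known. SPATA5 and SPATA5L1 were matched through newer symbols, and DDX47 had no row of its own. No 2 arrays of a group were alike (SD of differences 0.203 to 0.262). Alternatives were a replicate block, other scalings, filters, variance models, the mean of all rows, a threshold of 0.10 and leaving out each array.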

Additional observations from a re-analysis of the deposited data

How the results depend on the processing

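No member rose, and the median log2 change of the assembly factors stayed between -0.45 and -0.30, in all 15 other fits. The count of falls among the 39 members was 27 with the dimmest 50% of genes left out, 23 with a trended and robust variance and 23 at a threshold of 0.10, against 15 as deposited, and 5 to 13 with 1 array left out. With that filter and that variance falls over all genes also became more frequent, at 13.21% and 5.63%. They were 6.71% with the dimmest 25% left out, 3.69% with array weights and 2.06% under cyclic loess, against 2.65% as deposited. Over all 18417 genes 798 had an adjusted p between 0.05 and 0.10, in either direction. Among the other large subunit factors the count of falls was 4 under cyclic loess, and 15 and 19 with the dimmest 25% and 50% left out. It was 16 with a trended variance, 13 with array weights and 15 at a threshold of 0.10, against 8, and 1 to 6 with 1 array left out. Among the processome genes it was 31 with the dimmest 50% left out, against 20, and 4 to 18 with 1 array left out. The cause of these shifts was not tested, beyond the filters testing fewer genes (9208 and 13812) and the fits without 1 array holding fewer samples. Replicate numbers paired the arrays at most in part. Deviations of arrays with number 1, 2 and 3 correlated at -0.019, 0.33 and 0.22 across genes. Arrays with number 2 and 3 correlated best with their own number in the other group, and those with number 1 did not. With the replicate block 18 members fell, and falls over all genes were 3.84%, against 2.65% as deposited. Under a second quantile normalization the share of rises among all calls was 50.6%.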

Other observations

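Rows that carry a member's symbol beside others were kept out of the gene comparison, and no gene is named from them. The row shared by SENP3 and SENP3-EIF4A1 measured 7.84, 7.93 and 7.84 on the CTNNB1 siRNA arrays, against 8.28, 8.03 and 8.40 on the control arrays (log2 change -0.37 ± 0.12, limma adjusted p = 0.220 over all 33297 rows). The row shared by PPAN, P2RY11 and PPAN-P2RY11 measured 6.77, 6.75 and 6.71 on the CTNNB1 siRNA arrays, against 6.94, 6.97 and 6.82 on the control arrays (log2 change -0.17 ± 0.09, adjusted p = 0.463). On both rows the groups did not overlap, and neither passed.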
